A study of Mus musculus with 15 samples.

Results

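The heat shock chaperones described here are 10 genes, chosen by symbol from the 18929 genes of a mouse skin expression table: Hspa1a, Hspa1b, Hspa8, Hsph1, Hsp90aa1, Dnajb1, Hspb1, Bag3, Hspe1 and Hspd1. All 10 passed the filter on low counts. RNA was sequenced from dorsal skin of male balb/c mice labelled wild type (WT), in 5 groups of 3 samples, and the methods give an age of 4 to 6 weeks for the mice when the wounds were made. The acellular groups had received acellular Matrigel beads in a full-thickness excisional wound of 10 mm or 15 mm. The HDB groups had received, in wounds of the same sizes, high-density beads laden with human umbilical cord mesenchymal stem cells (MSCs), with acellular beads in the gaps between them. The 10 mm wound held 56 such beads with 84000 MSCs and the 15 mm wound 120 beads with 180000 MSCs. Normal skin was not wounded. The methods name a 4-week implantation for the sequenced skin but end the wound experiment on day 21, and either time is late in healing. Nothing in the sources used here says what a replicate number marks or that the samples of a group came from separate mice, and p-values therefore measure the spread between these samples only.

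Heat shock proteins are molecular chaperones, which bind unfolded or partly folded proteins and help them to fold, to be held soluble or to be handed on for degradation. Several are made at a steady level in every cell, while others are switched on within minutes when heat, oxidation or injury unfolds proteins and the transcription factor HSF1 binds heat shock elements, which are inverted repeats of the letters GAA and TTC. In skin, Hspb1 is known from differentiating keratinocytes, and Bag3 and the small heat shock proteins are known from striated muscle, which runs as a thin sheet beneath mouse skin.

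Estimated read counts summed to between 15840542 and 18404177 per sample, so the depth differed little. Levels are given as CPM, counts scaled to a common library size, after TMM normalization. The skin identity of the samples was checked with marker lists. The 7 epidermal markers summed to between 5453 and 15912 CPM over the 15 samples and the 6 dermal fibroblast markers to between 3416 and 23973 CPM. The 11 skeletal muscle markers summed to between 48668 and 59294 CPM in normal skin and to between 646 and 35802 CPM in the wound samples. The 11 hair shaft and inner root sheath markers summed to between 7.94 and 8.30 CPM in normal skin and reached 18305 CPM in acellular 15 mm replicate 1. In bulk skin, fewer cells of a type and less RNA per cell cannot be told apart.

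Stretches of 250 bases directly upstream of the annotated start are shown for members whose counts or motifs bear on the results below. RefSeq entries (GRCm38.p6, the build of the submitters' processing notes) matched 8 of the 10 members. Hspa8 and Hsp90aa1 were not among them. Capitals mark every GAANNTTC and TTCNNGAA, the 2 arrangements of a minimal heat shock element, and both read the same on either strand. Among 32851 upstream stretches of this length, 6.69% held GAANNTTC and 7.17% held TTCNNGAA, while 0.466% held 3 units in a row (GAANNTTC followed directly by NNGAA, or TTCNNGAA followed directly by NNTTC, which are each other read on the opposite strand and overlap the shorter motifs). Of the 8 members with an entry, 6 held at least 1 of the 2 shorter motifs. The first pair is shown because the genes are close copies, at chr17:34972157-34972406 (minus strand) for Hspa1a and chr17:34959239-34959488 (minus strand) for Hspa1b.
Hspa1a: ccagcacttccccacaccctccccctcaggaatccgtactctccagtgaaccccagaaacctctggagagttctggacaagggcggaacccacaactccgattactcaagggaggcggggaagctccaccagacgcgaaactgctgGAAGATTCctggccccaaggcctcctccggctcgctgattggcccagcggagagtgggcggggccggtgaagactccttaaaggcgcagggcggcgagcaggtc
Hspa1b: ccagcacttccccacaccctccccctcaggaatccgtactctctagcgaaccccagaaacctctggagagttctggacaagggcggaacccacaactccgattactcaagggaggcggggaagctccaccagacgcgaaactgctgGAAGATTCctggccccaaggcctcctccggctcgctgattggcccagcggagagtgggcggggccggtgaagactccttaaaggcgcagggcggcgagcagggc
Counted from 1 at the 5′ end of the Hspa1a stretch, the Hspa1b stretch differed at 3 of 250 positions, by C44T, T47C and T249G. Both held the same GAANNTTC from 104 to 97 bases before the start.

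The next 3 stretches are those of Hspe1 (chr1:55087898-55088147, plus strand), Hspb1 (chr5:135887669-135887918, plus strand) and Hsph1 (chr5:149636337-149636586, minus strand). They are shown because they hold the remaining motifs of the members.
Hspe1: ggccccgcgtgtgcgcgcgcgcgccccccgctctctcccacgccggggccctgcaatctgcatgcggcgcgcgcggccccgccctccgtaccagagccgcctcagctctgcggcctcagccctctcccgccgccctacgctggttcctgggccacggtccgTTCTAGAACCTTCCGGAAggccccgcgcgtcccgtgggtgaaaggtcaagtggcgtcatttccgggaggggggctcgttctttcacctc
Hspb1: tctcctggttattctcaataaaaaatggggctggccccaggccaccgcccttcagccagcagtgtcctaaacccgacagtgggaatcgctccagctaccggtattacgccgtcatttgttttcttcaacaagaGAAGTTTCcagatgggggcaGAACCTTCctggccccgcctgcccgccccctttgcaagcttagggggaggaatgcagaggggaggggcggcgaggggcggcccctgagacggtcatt
Hsph1: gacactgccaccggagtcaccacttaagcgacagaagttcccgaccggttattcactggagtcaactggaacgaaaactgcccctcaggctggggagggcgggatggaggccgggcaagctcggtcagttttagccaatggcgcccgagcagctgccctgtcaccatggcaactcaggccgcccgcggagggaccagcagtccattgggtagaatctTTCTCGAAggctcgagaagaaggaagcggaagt
Hspe1 held an unbroken run of 18 bases with both 3-unit arrangements, from 89 to 72 bases before its start. Hspd1 lies on the opposite strand, with its gene span overlapping that of Hspe1 by 96 bases, and 1 of its 2 RefSeq stretches covers the same run read on the other strand. Hspb1 held 2 GAANNTTC and Hsph1 1 TTCNNGAA, 33 to 26 bases before the start in the stretch shown. Bag3, Dnajb1 and the other Hspd1 stretch held neither motif in these 250 bases, which says only that these letters are absent from this window.

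Most members had higher mean levels in wound skin than in normal skin, and none was called between HDB and acellular skin. Relative to normal skin, 8 of 10 members had positive log2 fold changes in acellular 10 mm and HDB 10 mm skin, and 9 of 10 did in acellular 15 mm and HDB 15 mm skin. The median log2 fold change of the members against normal skin was 0.68 (10 mm) and 0.47 (15 mm) with acellular beads and 0.39 (10 mm) and 0.58 (15 mm) with HDB, against 0.03, 0.06, 0.02 and 0.02 over all 15369 genes tested. Without acellular 10 mm replicate 1 the acellular 10 mm median of the members was 0.43, and without acellular 15 mm replicate 3 the acellular 15 mm median was 0.75. Past an adjusted p of 0.05 in edgeR's quasi-likelihood test there were 2 members in acellular 10 mm skin (20.3% of all genes tested were called) and 3 in acellular 15 mm skin (30.2%), all higher (9.77% and 17.6% of all genes were called higher). In the HDB 10 mm comparison 0 members were called (12.3% of all genes), with 2 at an unadjusted p under 0.05 (31.6%). In the HDB 15 mm comparison 0 were called (5.18%), with 4 at an unadjusted p under 0.05 (26.9%). The shares of all genes called themselves moved when 1 library was left out, to between 0.501% (without normal replicate 3) and 17.5% (without HDB 10 mm replicate 1) in the HDB 10 mm comparison, and to between 0.218% (without normal replicate 3) and 8.61% (without HDB 15 mm replicate 2) in the HDB 15 mm comparison. Against normal skin, DESeq2 called 5 members at 10 mm (32.9% of all genes) and 4 at 15 mm (40.2%) with acellular beads, and 1 at 10 mm (24.8%) and 4 at 15 mm (18.6%) with HDB. Every sample of the wound group lay above every normal sample for 6 members at 10 mm (29.1% of all genes) and 3 at 15 mm (22.5%) with acellular beads, and for 6 members at 10 mm (25.7%) and 7 at 15 mm (23.8%) with HDB. The 4 comparisons share the same 3 normal samples.

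**Figure D1:**
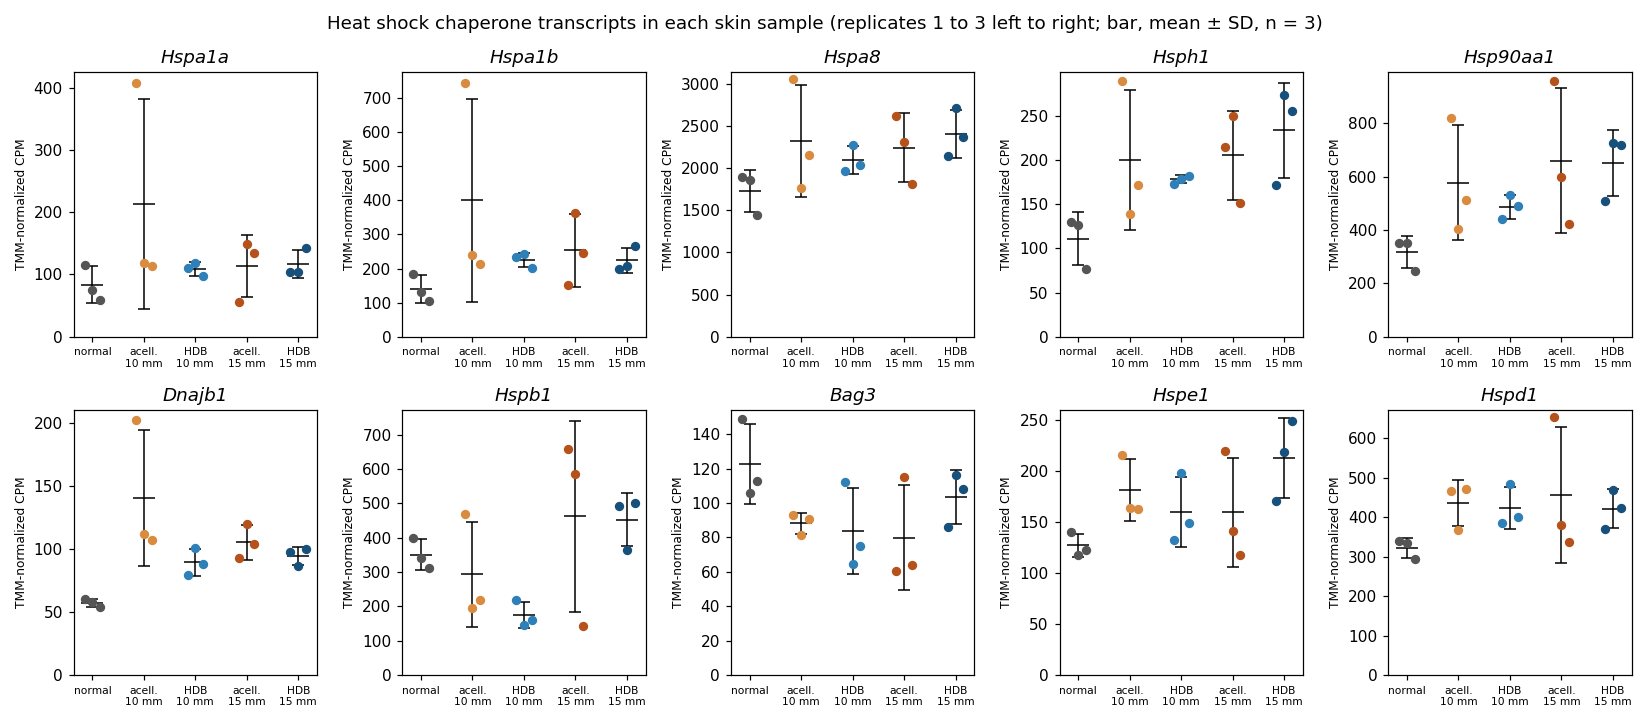
Each panel plots 1 member, with TMM-normalized CPM on the vertical axis and the 5 groups on the horizontal axis, points for replicates 1 to 3 from left to right and bars for the mean ± SD (n = 3). Hsph1, Hsp90aa1 and Dnajb1 lie above every normal sample in all 12 wound samples (as do 9.86% of all genes tested), Bag3 has its highest mean in normal skin, and acellular 10 mm replicate 1 stands alone at 407 CPM for Hspa1a and 744 CPM for Hspa1b.

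The 10 members spanned a wide range of levels. Per kilobase of transcript, the constitutive Hspa8 was highest in normal skin at 722 ± 104 CPM per kb (SD, n = 3), followed by Hspb1 at 389 ± 49.8, Hspe1 at 164 ± 14.4, Hspd1 at 133 ± 10.4 and Hsp90aa1 at 96.7 ± 18.6. Lower levels were found for Hspa1b (49.9 ± 14.3), Bag3 (47.8 ± 9.14), Hsph1 (29.2 ± 7.88), Hspa1a (28.2 ± 9.88) and Dnajb1 (19.1 ± 1.06), all in CPM per kb. Summed over the 10 members, the level was 2822 to 3760 CPM in normal skin and 3531 to 6764 CPM in the wound samples, or 0.282% to 0.676% of normalized counts. The highest sum was that of acellular 10 mm replicate 1, and the next, 5675 CPM, that of acellular 15 mm replicate 1.

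Among the stress-inducible HSP70 genes, Hspa1a and Hspa1b encode nearly the same protein, which binds exposed hydrophobic stretches of unfolded clients. Hspa1a (Entrez 193740) lies at chr17:34969359-34972156 and Hspa1b (Entrez 15511) at chr17:34956429-34959238, both on the minus strand of GRCm38. Their longest open reading frames were 99.4% identical, and 47.1% of the 100-base windows of the Hspa1a transcript occurred unchanged in that of Hspa1b, against 0% in that of Hspa8. Both genes carried decimal counts in all 15 samples, as arises when reads that match several transcripts are shared out, so the split between them is uncertain. Hspa1b measured 744, 241 and 214 CPM with acellular beads and 234, 242 and 203 CPM with HDB in 10 mm wounds, 151, 364 and 246 CPM with acellular beads and 200, 206 and 266 CPM with HDB in 15 mm wounds, and 183, 132 and 104 CPM in normal skin. Hspa1a measured 407, 119 and 113 CPM with acellular beads and 111, 118 and 97.2 CPM with HDB in 10 mm wounds, 56.6, 149 and 135 CPM with acellular beads and 104, 104 and 142 CPM with HDB in 15 mm wounds, and 116, 75.7 and 59 CPM in normal skin. In both genes acellular 10 mm replicate 1 was far above every other sample, and the remaining groups of wound skin overlapped one another.

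Against normal skin, Hspa1b rose by 1.51 ± 0.44 on the log2 scale (SE) in acellular 10 mm skin (edgeR adjusted p = 0.0325), and each of the 3 samples was above each normal sample. Without acellular 10 mm replicate 1 the difference was 0.70 (adjusted p = 0.177), and without normal replicate 2 or 3 it was 1.46 (adjusted p = 0.0969) or 1.33 (adjusted p = 0.12). Hspa1a gave 1.35 ± 0.48 in the same comparison (adjusted p = 0.0628) and 0.47 without that sample (adjusted p = 0.413). With the counts of both genes summed, which removes the uncertain split, the difference was 1.45 (adjusted p = 0.0419). The Hspa1b call was lost with similar differences when only the groups compared were fitted (adjusted p = 0.0509), with the replicate block (1.46, adjusted p = 0.0526) and with the skeletal muscle covariate (1.44, adjusted p = 0.0874). In the other 3 wound groups (acellular 15 mm, HDB 10 mm, HDB 15 mm), the differences from normal skin were 0.86, 0.69 and 0.68 for Hspa1b and 0.44, 0.38 and 0.48 for Hspa1a, with adjusted p from 0.147 to 0.612, although every HDB sample of either size lay above every normal sample for Hspa1b.

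Hspa8, the constitutive HSP70 of the cytosol (Entrez 15481, chr9:40801276-40805202, plus strand), measured 3057, 1759 and 2151 CPM with acellular beads and 1962, 2276 and 2035 CPM with HDB in 10 mm wounds, 2610, 2307 and 1809 CPM with acellular beads and 2144, 2704 and 2363 CPM with HDB in 15 mm wounds, and 1890, 1856 and 1441 CPM in normal skin. Both HDB groups lay above the normal range, while each acellular group had 1 sample within it. The log2 differences from normal skin were between 0.27 and 0.48, with adjusted p from 0.196 to 0.442. The ratio of inducible to constitutive HSP70 counts, (Hspa1a + Hspa1b) to Hspa8, was 0.244 ± 0.117 with acellular beads and 0.161 ± 0.0142 with HDB in 10 mm wounds, 0.171 ± 0.0794 and 0.143 ± 0.0291 in 15 mm wounds, and 0.128 ± 0.0264 in normal skin (SD, n = 3). It ranged from 0.0795 in acellular 15 mm replicate 1 to 0.376 in acellular 10 mm replicate 1, both of them acellular samples. In two-sided exact permutation tests, the log2 ratio over both sizes was -0.32 for HDB minus acellular skin (p = 0.34, adjusted p = 0.453) and 0.41 for wound minus normal skin (p = 0.246, adjusted p = 0.453), each adjusted over 4 ratio tests. Without acellular 15 mm replicate 1, the HDB difference was -0.56 (exact permutation p = 0.035, not adjusted).

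Cochaperones set the pace of HSP70. Dnajb1, the HSP40 that delivers clients to HSP70 and stimulates its ATPase (Entrez 81489, chr8:83608175-83612653, plus strand), measured 203, 112 and 107 CPM with acellular beads and 79.7, 101 and 88.2 CPM with HDB in 10 mm wounds, 92.6, 120 and 104 CPM with acellular beads and 97.9, 86.3 and 100 CPM with HDB in 15 mm wounds, and 60.1, 58.1 and 53.9 CPM in normal skin. All 12 wound samples exceeded all 3 normal samples. Dnajb1 rose by 1.29 ± 0.21 on the log2 scale in acellular 10 mm skin (edgeR adjusted p = 0.00544) and by 0.88 ± 0.21 in acellular 15 mm skin (adjusted p = 0.0113). These calls held with each replicate left out in turn, the 10 mm value falling to 0.93 without acellular 10 mm replicate 1. In HDB skin the differences were 0.64 ± 0.21 at 10 mm (adjusted p = 0.0618) and 0.72 ± 0.21 at 15 mm (adjusted p = 0.0614), and the 10 mm value was 0.74 (adjusted p = 0.049) without HDB 10 mm replicate 1. With the skeletal muscle level as a covariate in the fit, the acellular 10 mm call was kept at 1.16 (adjusted p = 0.0176) and the acellular 15 mm call was lost at 0.67 (adjusted p = 0.128). This covariate overlaps with wounding, because every normal sample had a higher muscle level than every wound sample.

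Hsph1, the HSP110 that exchanges the nucleotide of HSP70 and helps it to dissolve aggregates (Entrez 15505, chr5:149616843-149636498, minus strand), measured 289, 139 and 172 CPM with acellular beads and 173, 179 and 182 CPM with HDB in 10 mm wounds, 215, 250 and 151 CPM with acellular beads and 172, 273 and 255 CPM with HDB in 15 mm wounds, and 130, 126 and 76.3 CPM in normal skin. Hsp90aa1, the inducible cytosolic HSP90 that matures kinases and hormone receptors (Entrez 15519, chr12:110691036-110696395, minus strand), measured 819, 403 and 513 CPM with acellular beads and 441, 530 and 492 CPM with HDB in 10 mm wounds, 958, 601 and 423 CPM with acellular beads and 509, 728 and 719 CPM with HDB in 15 mm wounds, and 353, 352 and 247 CPM in normal skin. Like Dnajb1, both genes were higher in every wound sample than in every normal sample. In acellular 15 mm skin Hsph1 rose by 0.89 ± 0.29 (adjusted p = 0.0385) and Hsp90aa1 by 1.06 ± 0.31 (adjusted p = 0.0258), on the log2 scale. In HDB 15 mm skin the differences were as large, 1.07 ± 0.29 for Hsph1 (adjusted p = 0.0529) and 1.04 ± 0.31 for Hsp90aa1 (adjusted p = 0.0687), and were not called. In 10 mm wounds they were 0.85 and 0.87 with acellular beads and 0.68 and 0.62 with HDB, with adjusted p from 0.0564 to 0.192. Without acellular 10 mm replicate 1, the values with acellular beads were 0.49 for Hsph1 (adjusted p = 0.261) and 0.53 for Hsp90aa1 (adjusted p = 0.282), and without acellular 10 mm replicate 2 Hsph1 was called (1.06, adjusted p = 0.0428). Without acellular 15 mm replicate 1, or without any 1 of the normal samples, only Dnajb1 remained called among the members in acellular 15 mm skin. Without acellular 15 mm replicate 1 the differences were 0.85 for Hsph1 (adjusted p = 0.0809) and 0.69 for Hsp90aa1 (adjusted p = 0.102). Without normal replicate 1 they were larger than with all samples, 1.01 (adjusted p = 0.0566) and 1.13 (adjusted p = 0.0534), and without normal replicate 3 smaller, 0.67 (adjusted p = 0.135) and 0.90 (adjusted p = 0.096). Without acellular 15 mm replicate 2 Hsph1 was no longer called. With the skeletal muscle covariate neither Hsph1 (0.97, adjusted p = 0.132) nor Hsp90aa1 (0.94, adjusted p = 0.165) was called there. The 11 hair shaft and inner root sheath markers were all called higher in acellular 15 mm skin. Their mean level deviated from the group means with a correlation of 0.705 with Hsp90aa1, 0.665 with Hspa8, 0.655 with Hspd1, 0.503 with Hspe1 and 0.477 with Hsph1 over the 15 samples. The correlation was 0.254 with Dnajb1, 0.0975 with Hspa1b, 0.0765 with Bag3 and -0.0391 with Hspa1a. The part of hair follicle content in these values was not tested.

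Bag3, the nucleotide exchange factor that links HSP70 to small heat shock proteins and autophagy (Entrez 29810, chr7:128523583-128546981, plus strand), was the 1 member with a negative difference from normal skin in all 4 wound groups. It measured 92.8, 81.4 and 90.5 CPM with acellular beads and 112, 64.6 and 74.8 CPM with HDB in 10 mm wounds, 60.5, 115 and 64.2 CPM with acellular beads and 85.9, 116 and 108 CPM with HDB in 15 mm wounds, and 149, 106 and 113 CPM in normal skin. Only the acellular 10 mm samples all lay below the normal ones (27.2% of all genes did so in that comparison). The log2 differences from normal skin were -0.47 at 10 mm and -0.62 at 15 mm with acellular beads and -0.55 and -0.25 with HDB, with adjusted p from 0.0878 to 0.573. Bag3 was called lower in acellular 15 mm skin by DESeq2 (-0.63, adjusted p = 0.0377) and without acellular 15 mm replicate 2 (-0.97, adjusted p = 0.0138), and in acellular 10 mm skin with only the groups compared (-0.48, adjusted p = 0.0362). Bag3 varied beside the skeletal muscle list, with a correlation of their deviations from the group means of 0.754 over the 15 samples, which share libraries. The wound samples with Bag3 at 112, 115 and 116 CPM had 35802, 18970 and 27323 CPM of muscle markers, and those at 60.5, 64.2 and 64.6 CPM had 2976, 646 and 887 CPM. In acellular 10 mm skin the order was different, as the highest Bag3 level (92.8 CPM) came with the lowest muscle sum (5112 CPM, against 13374 and 27606 CPM for the samples at 81.4 and 90.5 CPM). HDB 15 mm replicate 3, with Bag3 at 108 CPM, had 9535 CPM of muscle markers. With the muscle list as a covariate, the Bag3 differences from normal skin were -0.17, -0.08, -0.15 and 0.01 in the same order. Every normal sample had a higher muscle level than every wound sample, so this covariate cannot be fully told apart from wounding. The part of muscle content was not tested.

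Hspb1, the small heat shock protein HSP27 that holds unfolding clients and protects the cytoskeleton (Entrez 15507, chr5:135887919-135889563, plus strand), was uneven between samples of the same group. It measured 470, 194 and 218 CPM with acellular beads and 219, 146 and 159 CPM with HDB in 10 mm wounds, 658, 587 and 144 CPM with acellular beads and 493, 364 and 500 CPM with HDB in 15 mm wounds, and 400, 340 and 312 CPM in normal skin. The acellular 15 mm group thus held both the highest and the lowest sample of the study. Every HDB 10 mm sample lay below every normal sample (23.4% of all genes), with a log2 difference of -1.01 ± 0.47 (edgeR adjusted p = 0.159). With only the groups compared in the fit, this difference was called (-1.02, adjusted p = 0.0248). HDB 15 mm skin differed by 0.37 ± 0.46 (adjusted p = 0.646). The deviations of Hspb1 from its group means had a correlation of 0.866 with those of the hair shaft and inner root sheath list over the 15 samples. In acellular 15 mm skin, where Hspb1 was 658, 587 and 144 CPM, that list summed to 18305, 1409 and 29.3 CPM, and in acellular 10 mm skin, where Hspb1 was 470, 194 and 218 CPM, to 1289, 18.1 and 378 CPM. The part of hair follicle content in the Hspb1 values was not tested.

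**Figure D2:**
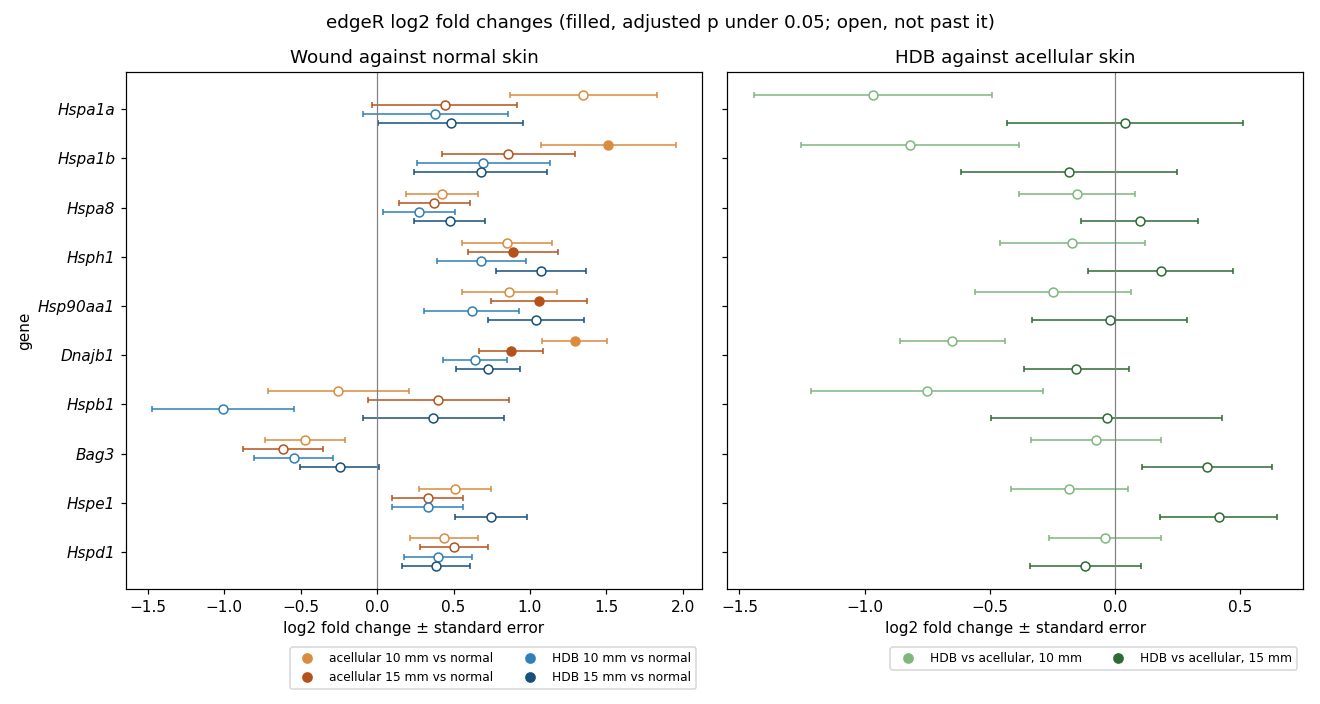
The horizontal axis gives the edgeR log2 fold change of each member with its standard error, against normal skin on the left and for HDB against acellular skin on the right, with filled points for an adjusted p under 0.05. The filled points are Hspa1b and Dnajb1 in acellular 10 mm skin and Hsph1, Hsp90aa1 and Dnajb1 in acellular 15 mm skin, and no point on the right is filled.

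The mitochondrial chaperonin is built of Hspd1 (HSP60), which forms a folding chamber, and Hspe1 (HSP10), its lid. Their genes are neighbours on chromosome 1, Hspd1 (Entrez 15510) at chr1:55077833-55088243 on the minus strand and Hspe1 (Entrez 15528) at chr1:55088148-55091317 on the plus strand. Whether counting used strand is not given in the sources used here, so reads from the 96 shared bases cannot be told apart. Hspd1 measured 466, 368 and 471 CPM with acellular beads and 386, 485 and 400 CPM with HDB in 10 mm wounds, 653, 379 and 337 CPM with acellular beads and 370, 469 and 424 CPM with HDB in 15 mm wounds, and 339, 334 and 293 CPM in normal skin. Hspe1 measured 216, 164 and 163 CPM with acellular beads and 132, 198 and 149 CPM with HDB in 10 mm wounds, 220, 141 and 118 CPM with acellular beads and 171, 219 and 249 CPM with HDB in 15 mm wounds, and 140, 118 and 123 CPM in normal skin. Of the 12 wound samples, 11 exceeded the normal range for Hspd1. The largest difference of the pair was that of Hspe1 in HDB 15 mm skin, 0.75 ± 0.24 on the log2 scale (adjusted p = 0.0763), and those of Hspd1 lay between 0.39 and 0.50 in the 4 wound groups (adjusted p from 0.101 to 0.283). In acellular 15 mm skin, where Hspd1 differed by 0.50, it gave 0.68 without acellular 15 mm replicate 3 (adjusted p = 0.0297) and 0.15 without acellular 15 mm replicate 1 (adjusted p = 0.496).

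The count ratio of Hspd1 to Hspe1 was 2.43 ± 0.406 with acellular beads and 2.69 ± 0.239 with HDB in 10 mm wounds, 2.84 ± 0.139 and 2.00 ± 0.256 in 15 mm wounds, and 2.54 ± 0.248 in normal skin (SD, n = 3). At 15 mm the samples did not overlap, with 2.96, 2.69 and 2.87 in acellular and 2.16, 2.14 and 1.70 in HDB skin, whereas at 10 mm acellular skin (2.16, 2.24 and 2.90) overlapped HDB skin (2.93, 2.45 and 2.68). With 3 samples against 3, an exact test within a size cannot go below p = 0.1, and none was run. Over both sizes the log2 ratio differed by -0.18 (exact permutation p = 0.24, adjusted p = 0.453), and between wound and normal skin by -0.05 (p = 0.774 for both the raw and the adjusted exact permutation value). Hspe1 has a transcript of 774 bases and Hspd1 one of 2423. After a correction for the trend of each sample with transcript length, the Hspe1 difference between HDB and acellular 15 mm skin went from 0.42 to -0.04.

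**Figure D3:**
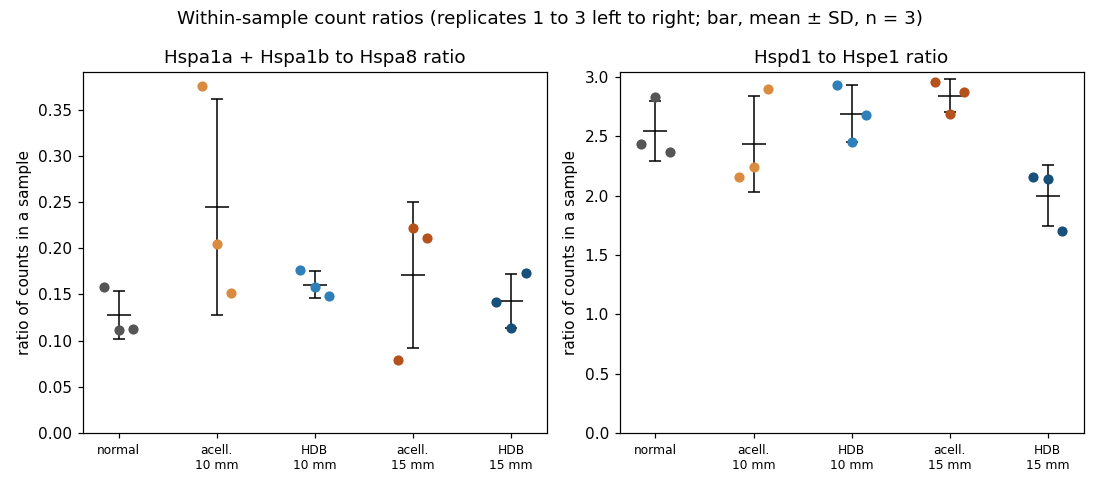
The vertical axes give, from 0, the ratio of (Hspa1a + Hspa1b) to Hspa8 counts on the left and of Hspd1 to Hspe1 counts on the right, per sample and group, with bars for the mean ± SD (n = 3). The acellular samples spread from 0.0795 to 0.376 on the left, and on the right the HDB 15 mm samples, at 1.70 to 2.16, lie below the acellular 15 mm samples, at 2.69 to 2.96.

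The question the implants pose is whether MSC-laden beads changed the healed skin relative to acellular beads. Within 10 mm wounds, 0 of 10 members were called (0% of all genes were), and all 10 log2 fold changes of HDB against acellular skin were negative, from -0.97 (Hspa1a) to -0.04 (Hspd1). Dnajb1 was the 1 member at an unadjusted p under 0.05 (3.53% of all genes), and its HDB samples all lay below its acellular samples (6.47%). Its difference was -0.65 ± 0.21 (edgeR adjusted p = 1). The median of the members was -0.21, against -0.01 over all genes. These values depended on acellular 10 mm replicate 1. Without it, Hspa1a moved from -0.97 to -0.09, Hspa1b from -0.82 to -0.01, Hspb1 from -0.75 to -0.24 and Dnajb1 from -0.65 to -0.29, and Hspa8, Hsph1, Hsp90aa1 and Hspd1 turned positive (0.10, 0.19, 0.09 and 0.01). In the same comparison all 6 dermal fibroblast and all 6 endothelial markers were positive (medians of 1.26 and 0.69). Of the 11 hair shaft and inner root sheath markers 0 were positive (median -5.18). Epidermal (4 of 7 positive) and skeletal muscle markers (3 of 11) went both ways. None of these markers was called, and the part of cell content was not tested.

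Within 15 mm wounds, 0 of 10 members were called (2.93% of all genes were) and 0 had an unadjusted p under 0.05 (23.2%). The share of all genes called there was 14.9% without acellular 15 mm replicate 3, 0.979% without acellular 15 mm replicate 1 and 0% without HDB 15 mm replicate 1, 2 or 3, with 0 members called in each. Differences of HDB against acellular skin ran from -0.18 (Hspa1b) to 0.42 (Hspe1), with 5 positive and 5 negative, and the HDB and acellular samples of every member overlapped (20.3% of all genes did not overlap). Samples of these 2 groups with the same replicate number deviated together. Within these pairs, Bag3 was higher with HDB in all 3 (60.5 and 85.9 CPM, 115 and 116 CPM, 64.2 and 108 CPM), with a difference of 0.38 with the replicate block (adjusted p = 0.438). The other 9 members were higher in some pairs and lower in others. The ratio of Hspd1 to Hspe1 was lower with HDB in each pair, as it would be under any pairing, because the samples did not overlap. Over both sizes 0 members were called (0% of all genes), and Dnajb1, at -0.40 ± 0.15 (adjusted p = 0.268), was the 1 member at an unadjusted p under 0.05 (15.8%). The change of the HDB difference from 10 mm to 15 mm was positive in 9 of 10 members, from 0.23 (Hsp90aa1) to 1.01 (Hspa1a), and -0.08 for Hspd1. None was called (0% of all genes) and 0 had an unadjusted p under 0.05 (13.4%). The median of this change over the members was 0.47, against -0.035 over all genes. It was 0.07 without acellular 10 mm replicate 1 and 0.26 with the length trend removed. DESeq2 also called 0 members at 10 mm (0.111% of all genes), at 15 mm (14.1%), over both sizes (2.76%) and for the change between sizes (5.54%).

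Within groups, the levels of most pairs of members were positively related. Of the 45 pairs, 40 (88.9%) had a positive correlation of deviations from the group means over the 15 samples, with a median of 0.492, against 50.1% and 0.00162 over all pairs of genes tested. Part of this rested on acellular 10 mm replicate 1, without which 30 pairs (66.7%) were positive, with a median of 0.372 (50.2% and 0.00323 over all pairs of genes). Hspa1a and Hspa1b gave the highest value (r = 0.979, permutation p = 0.000257, adjusted p = 0.000772 over 3 pairs, Spearman's rho = 0.971 with permutation p = 0.000514), with r = 0.961 after the 2 samples farthest from the median were left out. Shared reads between these copies enter that value. Hspd1 and Hspe1 gave r = 0.845 (permutation p = 0.00772, adjusted p = 0.0116, rho = 0.736 with permutation p = 0.0266) and r = 0.686 without the 2 farthest samples. Hsph1 and Dnajb1, both partners of HSP70, gave r = 0.593 (permutation p = 0.12, adjusted p = 0.12, rho = 0.571 with permutation p = 0.0769), and r = 0.38 without the 2 farthest samples.

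As a description, Dnajb1 followed the inducible HSP70 genes (0.902 with Hspa1b, 0.871 with Hspa1a), whereas Hspa8, Hsp90aa1 and Hsph1 followed one another (0.942, 0.911 and 0.840). Hspd1 followed Hsp90aa1 (0.849) and was the member least like Hspa1a (-0.25). Acellular 15 mm replicate 1 parted these sets: it had the lowest Hspa1a of all 15 samples, 56.6 CPM, with the highest Hsp90aa1 and Hspd1, 958 and 653 CPM. That sample also had the highest summed level of 6 proliferation markers, 1602 CPM against 185 to 742 CPM elsewhere. The deviations of Hspd1 had a correlation of 0.824 with those of the proliferation list and those of Hspa1a one of -0.611, again over 15 samples that share libraries. In acellular 10 mm replicate 1, by contrast, the summed proliferation level was 497 CPM and all members except Hspd1 stood highest in their group.

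**Figure D4:**
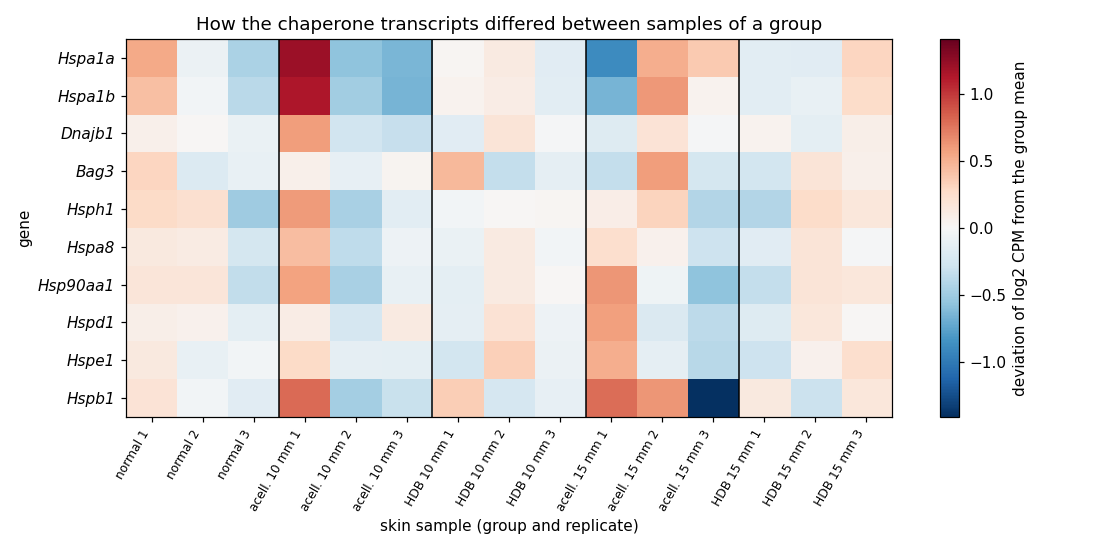
Each cell gives the deviation of a member's log2 CPM from the mean of its group, with members as rows, the 15 samples as columns and red for above the mean. Acellular 10 mm replicate 1 is above its group mean for all 10 members, while acellular 15 mm replicate 1 is below it for Hspa1a, Hspa1b, Dnajb1 and Bag3 and above it for Hsp90aa1, Hspd1, Hspe1 and Hspb1.

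The genes most like the members, by correlation of log2 CPM with the mean standardized level of the members among 12482 genes with at least 5 CPM, were Dnaja1 (0.928), Chordc1 (0.891), Fkbp4 (0.891), Stip1 (0.861) and Tax1bp3 (0.85) over the 15 samples. By deviations from group means they were Dnaja1 (0.935), Chordc1 (0.88), Ahsa1 (0.868), Dnajb2 (0.85) and Dda1 (0.844). These genes were chosen on the same 15 samples, so their levels are given without a test. Dnaja1, an HSP40 of the cytosol, averaged 429 CPM with acellular beads and 385 CPM with HDB in 10 mm wounds, 389 and 425 CPM in 15 mm wounds, and 264 CPM in normal skin. Chordc1, an HSP90 cochaperone, averaged between 117 and 128 CPM in the 4 wound groups and 87.5 CPM in normal skin, whereas Dda1 averaged 42.4 to 48 CPM in the wound groups and 49.5 CPM in normal skin.

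The rest of the chaperone network was counted in lists by role. Beside every count against normal skin that follows, 20.3% (10 mm) and 30.2% (15 mm) of all genes were called with acellular beads, and 12.3% and 5.18% with HDB. Of 11 HSP90 family members and cochaperones, 2 rose and 0 fell in each acellular group against normal skin, and 0 were called in either HDB group. These shares are near or below those of all genes. Unc45a, a myosin chaperone that works with HSP90, was called in both acellular groups, at 0.67 (adjusted p = 0.0173) and 0.63 (adjusted p = 0.0154). Of 8 other cytosolic HSP70 and HSP110 genes, 3 rose and 2 fell in acellular 15 mm skin, 1 rose and 2 fell in acellular 10 mm skin, and 1 rose in each HDB group. Hspa4l, an HSP110, was called in all 4 wound groups, with log2 rises of at least 1.02. Hspa12b, an HSP70 relative of endothelium, fell by 1.52 in acellular 10 mm skin (adjusted p = 0.0142), where the 6 endothelial markers were all called lower. Of the 13 other J-domain proteins and HSP70 cochaperones, 1 rose and 5 fell in acellular 15 mm skin, among them Dnajb4 with a log2 fold change of -1.17 (adjusted p = 0.0126). In acellular 10 mm skin 1 rose and 1 fell, in HDB 10 mm skin 2 fell, and in HDB 15 mm skin 0 were called. Of 8 subunits of TRiC, the cytosolic chaperonin, 1 was called, Cct3, which rose by 0.76 in acellular 15 mm skin (adjusted p = 0.0389), although all 8 were positive in both acellular groups and in HDB 15 mm skin. The 9 other mitochondrial chaperones and proteases gave 0 calls in any comparison, with median log2 differences from normal skin of -0.10 to -0.24.

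The 6 other small heat shock proteins were lower in all 4 wound groups than in normal skin by log2 fold change, with 2 of 6 called, both in acellular 15 mm skin. There Cryab fell by 2.26 (adjusted p = 0.0349) and Hspb2 by 2.33 (adjusted p = 0.0207) on the log2 scale. This list summed to 1365 to 1915 CPM in normal skin and 173 to 953 CPM in wound skin, beside the muscle marker sums given above. Endoplasmic reticulum chaperones fold secreted proteins such as collagen. Of 12, 5 rose at 10 mm and 9 at 15 mm with acellular beads, 5 at 10 mm and 10 at 15 mm with HDB, and 0 fell. These counts depended on single libraries. With 1 replicate left out, they were 0 to 4 at 10 mm and 5 to 9 at 15 mm with acellular beads, and 0 to 5 at 10 mm and 1 to 8 at 15 mm with HDB. They were lowest without acellular 10 mm replicate 1, normal replicate 1 or normal replicate 3 (0 in acellular 10 mm skin), without normal replicate 1 or normal replicate 3 (5 in acellular 15 mm skin), without HDB 10 mm replicate 2 or 3, normal replicate 1 or normal replicate 3 (0 in HDB 10 mm skin), and without HDB 15 mm replicate 3, normal replicate 1 or normal replicate 3 (1 in HDB 15 mm skin). With the muscle covariate 2, 3, 0 and 8 were called higher in acellular 10 mm, acellular 15 mm, HDB 10 mm and HDB 15 mm, and with only the groups compared 8, 2, 3 and 10. In HDB 15 mm skin Hspa5, the HSP70 of that compartment, rose by 1.06 ± 0.20 (adjusted p = 0.0216) and Serpinh1, the collagen chaperone, by 1.09 ± 0.26 (adjusted p = 0.0366). None of the 12 was called between HDB and acellular skin. Of the 4 regulators of the heat shock response, Hsf2 fell by 0.74 in acellular 15 mm skin (adjusted p = 0.00671), and Hsf1, Hsf4 and Hsbp1 were not called in any comparison.

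Immediate-early genes, which like Hspa1a respond within minutes to handling or injury, were measured beside the members. They summed to 1609 to 3715 CPM with acellular beads and 657 to 903 CPM with HDB in 10 mm wounds, to 828 to 1108 and 850 to 1107 CPM in 15 mm wounds, and to 685 to 855 CPM in normal skin. Of 10, 7 rose in acellular 10 mm skin against normal skin, led by Fosb (5.09) and Fos (4.39) on the log2 scale. In acellular 15 mm skin 3 rose and 1 fell, in HDB 10 mm skin 1 fell, and in HDB 15 mm skin 2 rose, the gene that fell being Klf4 both times (-0.62, adjusted p = 0.0123, and -0.51, adjusted p = 0.0474). Between HDB and acellular 10 mm skin 0 of 10 were called (0% of all genes were). There 0 of 10 log2 fold changes were positive, with a median of -1.40, against -0.01 over all genes. The highest sum, 3715 CPM, was that of acellular 10 mm replicate 3, not of replicate 1 (1695 CPM), in which the inducible HSP70 genes were highest. The deviations of Hspa1a and of this list from their group means had a correlation of -0.00265 over the 15 samples. Among 9 other stress genes, Gadd45a, a growth arrest gene, rose between HDB and acellular 15 mm skin by 0.78 ± 0.18 (adjusted p = 0.0435), where 2.93% of all genes were called. This was the 1 call of these network lists between HDB and acellular skin. It was kept by DESeq2, with total counts and without acellular 15 mm replicate 2 or 3. The list had 0 calls with no filter, the replicate block, the length trend removed, only the groups compared or the muscle covariate, and without acellular 15 mm replicate 1 or HDB 15 mm replicate 1, 2 or 3.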

How the data were processed

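RNA sequencing of 15 skin samples, 3 in each of 5 groups, was analysed from 1 table of estimated counts for 18929 genes, which the authors deposited not normalized. The submitters' processing notes name HISAT2 2.0.4, Bowtie2 2.2.5, RSEM 1.2.12 and the build GRCm38.p6, and how reads of the human cells were treated is not given in the sources used here. Libraries were made from mRNA caught with oligo(dT). Expected counts with decimals were rounded to whole numbers.

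Counts were normalized by TMM and filtered with filterByExpr, which left 15369 genes, and were tested by the quasi-likelihood method of edgeR 4.0.16 (R 4.3.3). A single model held the means of all 5 groups. The p-values were adjusted over all genes tested (Benjamini-Hochberg, threshold 0.05). Standard errors on the log2 scale were obtained by dividing each log2 fold change by the root of its F statistic. Log2 CPM used a prior count of 2. Levels per kilobase and the trend with transcript length used the longest GENCODE M21 transcript with a RefSeq accession. Where a gene had none, its longest transcript was used. Ratio tests were exact permutation tests, with group labels permuted within wound size (400 arrangements), or over all samples (455) for wound against normal skin. The correlation of a pair was tested by permuting samples within groups (7776 arrangements). All tests were two-sided, and the code was tested on simulated data.

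The members and gene lists were chosen with earlier results of these data known. The text names all 10 members, from each network list the gene with the highest mean level or up to 2 called genes in each direction and comparison, and the 5 genes most like the members by each measure. Alternatives were DESeq2 1.42.0, total counts without TMM, no filter, a fit of only the groups compared, a block for the replicate number, omission of each replicate in turn, Hspa1a and Hspa1b summed, removal of a trend with transcript length (also with the block) and the skeletal muscle list as a covariate. At 15 mm, acellular and HDB samples with the same number deviated from their group means together (correlations of 0.397, 0.167 and 0.183), so the numbers were treated as pairing these 2 groups and no others.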

Additional observations from a re-analysis of the deposited data

How the results depend on the processing

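None of the alternatives called a member between HDB and acellular skin at either size, over both sizes or for the change between sizes. At 10 mm only DESeq2 called any gene at all (0.111%). Over both sizes only DESeq2 (2.76%) and the fit without acellular 15 mm replicate 3 (1.47%) did. For the change between sizes, DESeq2 called 5.54% and every other alternative at most 0.00651%. At 15 mm the share ran from 0% to 14.9%. It was 0% without any 1 HDB 15 mm replicate, with only the groups compared and with the length trend removed. Against normal skin the counts of called members moved, as did the share of all genes called (in parentheses). In acellular 10 mm skin they were 5 with DESeq2 (32.9%), 7 with total counts (28.5%), 5 with only the groups compared (42%), and 1 each with the replicate block (16%), the length trend removed with the block (17.1%) and the muscle covariate (9.66%), against 2 (20.3%), and 1 to 3 with 1 replicate left out (5.14% to 11.9%). In acellular 15 mm skin they were 1 with only the groups compared (6.57%), 0 with the muscle covariate (4.83%), 4 with DESeq2 (Bag3 added, 40.2%), with total counts (Hspd1 added, 38.9%) and with the length trend removed (Hspe1 added, from 0.33 to 0.68, 28.6%) and 2 with the block too (Hsph1 and Hspe1 not called, adjusted p = 0.0553 and 0.0541, 23%), against 3 (30.2%), and 1 to 4 with 1 replicate left out (14.8% to 37.3%). In HDB 10 mm skin they were 1 with DESeq2 (24.8%), 3 with total counts (21.3%) and 2 with only the groups compared (20.2%), against 0 (12.3%), and 0 to 1 with 1 replicate left out. In HDB 15 mm skin they were 4 with DESeq2 (18.6%), with total counts (13.6%) and with only the groups compared (22.9%) and 1 with the length trend removed (5.89%), against 0 (5.18%). Total counts moved the median log2 fold change of all genes against normal skin from between 0.02 and 0.06 to between 0.18 and 0.26. Beyond what total counts, fewer samples or an added covariate change by construction, the cause was not tested. The muscle level was higher in every normal sample than in every wound sample. Against normal skin the muscle covariate therefore cannot be fully told apart from wounding. At 10 mm and against normal skin samples share only a replicate number, and the block took the Hspa1b difference in acellular 10 mm skin to 1.46 (adjusted p = 0.0526). Between HDB and acellular 15 mm skin, the groups that the numbers pair, the block changed no call of a member.

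Signs turned only where a member was not called. For HDB against acellular skin at 10 mm, Bag3 was 0.0194 with the muscle covariate, and Hspd1 was 0.0024 with total counts and 0.0004 with the length trend removed and the block. At 15 mm, Hspa1a was -0.0070 with total counts and -0.027 with the length trend removed and the block, and the summed counts of Hspa1a and Hspa1b gave -0.11. Hspa8 was -0.0256 with the length trend removed and -0.004 with the block too. Hsp90aa1 was 0.0509 with the replicate block, 0.0387 with the length trend removed and the block and 0.0421 with the muscle covariate. Hspb1 was 0.0882 with the replicate block. Hspe1 was -0.0387 with the length trend removed and -0.016 with the block too. Over both sizes, Hspa8 was 0.0027 with only the groups compared, Hsph1 -0.0059 with the muscle covariate, and Hspe1 -0.0353 with the length trend removed and -0.0176 with the block too. For the change between sizes Hspe1 was -0.0069 with the length trend removed, and for HDB 15 mm against normal skin Bag3 was 0.0081 with the muscle covariate.

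With 1 replicate left out, these values spanned 0 at 10 mm: Hspa8 (-0.32 to 0.10), Hsph1 (-0.37 to 0.19), Hsp90aa1 (-0.45 to 0.0901), Bag3 (-0.32 to 0.10) and Hspd1 (-0.15 to 0.0506). At 15 mm they were Hspa1a (-0.28 to 0.29), Hspa1b (-0.45 to 0.17), Hspa8 (-0.0325 to 0.22), Hsp90aa1 (-0.26 to 0.35), Hspb1 (-0.46 to 0.31) and Hspd1 (-0.29 to 0.23). Over both sizes they were Hspa8 (-0.11 to 0.10), Hsph1 (-0.10 to 0.19), Hsp90aa1 (-0.25 to 0.0503) and Hspd1 (-0.17 to 0.10), and for the change between sizes Hspa1b (-0.17 to 0.99), Hsph1 (-0.0079 to 0.56), Hsp90aa1 (-0.11 to 0.60) and Hspd1 (-0.26 to 0.27). The HDB difference of the log2 ratio of (Hspa1a + Hspa1b) to Hspa8 ran from -0.56 to -0.14, and the wound difference of the log2 ratio of Hspd1 to Hspe1 from -0.0936 to 0.0331. Ratios use counts of the same sample and do not depend on the scaling. With 3 samples in a group, a single library can set a mean, as acellular 10 mm replicate 1 did for Hspa1a and Hspa1b, and sequencing depth alone does not measure this spread between samples. The counts of endoplasmic reticulum chaperones under these settings, and the pairs of members without acellular 10 mm replicate 1, were added after seeing the data.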

Other observations

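Clock genes time many tissue programmes. Of 10, 1 rose and 5 fell in acellular 15 mm and in HDB 10 mm skin, 1 rose and 4 fell in HDB 15 mm skin, and 1 rose and 2 fell in acellular 10 mm skin, where 20.3% of all genes were called (30.2% at 15 mm with acellular beads, 12.3% at 10 mm and 5.18% at 15 mm with HDB). Arntl, the activator BMAL1, rose by 1.95 to 2.16 on the log2 scale in the 4 wound groups, with edgeR adjusted p from 0.00332 to 0.00727. Dbp, one of its targets, had log2 fold changes of -3.51 in acellular 15 mm (adjusted p = 0.00878), -3.36 in HDB 10 mm (adjusted p = 0.0222) and -3.77 in HDB 15 mm skin (adjusted p = 0.029). The time of day at which skin was taken is not given in the sources used here. None of the 10 was called between HDB and acellular skin.

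Among the 9 other stress genes, Sqstm1, an autophagy receptor, fell in all 4 wound groups against normal skin, with log2 fold changes of -1.28 to -0.87 (adjusted p from 0.00358 to 0.0372). Gadd45a rose in acellular 10 mm, acellular 15 mm and HDB 15 mm skin, by 0.93, 0.99 and 1.77. These 2 genes were the only calls of that list against normal skin. They were lower and higher in skin that also differed from normal skin in its muscle, endothelial and proliferation marker sums, and the part of these in the values was not tested.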
